A study of Homo sapiens with 12 samples.

Results

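Transcript levels of 10 genes of tumour necrosis factor (TNF) receptor signalling were followed in chromate-exposed BEAS-2B, an immortalised cell line from human bronchial epithelium. The genes were 7 receptors of the TNF family (TNFRSF1A, TNFRSF10A, TNFRSF10D, TNFRSF11B, TNFRSF12A, TNFRSF21 and TNFRSF9) and 3 inhibitor of apoptosis (IAP) genes (BIRC2, BIRC3 and XIAP). Their rows were taken by gene symbol, from a list drawn up with earlier results of these data known, and all 10 were found among the 78932 genes of one deposited table and the 35697 genes of the other.

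The study asked how kava, an extract of the kava plant, acts on cells exposed to hexavalent chromium for a long time, and what the splicing factor SNRPA1, one of the proteins of the spliceosomal U2 particle, contributes. Polyadenylated RNA was sequenced from 12 libraries in 4 groups of 3. All groups carried the genotype label WT and had been kept for 20 weeks in 0.25 µM K2Cr2O7. Kava cells received 25 µg/ml kava over that time, and vehicle cells received 0.05% DMSO. SNRPA1 siRNA cells were chromate and vehicle cells transfected with a 100 nM SmartPool against SNRPA1, and control siRNA cells were the same cells given 100 nM non-targeting oligonucleotides, with both harvested after 48 h. Cells without chromate were not analysed here. The labels do not say whether the 3 libraries of a group came from separate cultures, so p-values measure the spread between these libraries, which may be technical.

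TNF family receptors are membrane proteins that bind trimeric ligands. Those with an intracellular death domain, such as TNFRSF1A and TNFRSF10A, can start caspase activation through adaptor proteins, and most members also recruit TRAF adaptors and activate the transcription factor NF-kB. Decoy members bind a ligand without passing on a full signal. BIRC2 and BIRC3 (cIAP1 and cIAP2) are ubiquitin ligases that TRAF2 brings to the receptors, where they favour NF-kB over cell death, and XIAP binds caspases and blocks them directly.

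With kava, 5 of the 10 genes were higher and 2 were lower than with vehicle, where 16.3% of all tested genes were called higher and 15.6% lower (31.9% in all). The death receptors TNFRSF1A, TNFRSF10A and TNFRSF21, the soluble decoy TNFRSF11B and the TWEAK receptor TNFRSF12A rose, whereas the costimulatory receptor TNFRSF9 and the IAP gene BIRC3 fell. After SNRPA1 knockdown, in which 12.2% of tested genes were called, TNFRSF1A was higher and TNFRSF9 lower, and both of these calls ended when certain single libraries were left out.

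For the 6 genes with promoters in the RefSeq table (TNFRSF1A, TNFRSF9, TNFRSF21, BIRC2, BIRC3 and XIAP), 1 promoter each was searched. Among these, motif matches lay in TNFRSF9 and BIRC3, which fell with kava. Of the genes that rose with kava, only TNFRSF1A and TNFRSF21 were searched. RefSeq listed 2 promoters for BIRC2 and 3 for XIAP, and only the first listed was searched. TNFRSF10A, TNFRSF10D, TNFRSF11B and TNFRSF12A had no promoter there and were not searched. The 250 bases before the RefSeq start in build GRCh38.p14 were searched on both strands for the NF-kB consensus, for the AP-1 site TGANTCA and for the cAMP element TGACGTCA. The promoters of TNFRSF9 and BIRC3 are printed because they held all the matches, and capitals mark the matched bases.

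TNFRSF9 promoter, chr1:7940840-7941089, minus strand: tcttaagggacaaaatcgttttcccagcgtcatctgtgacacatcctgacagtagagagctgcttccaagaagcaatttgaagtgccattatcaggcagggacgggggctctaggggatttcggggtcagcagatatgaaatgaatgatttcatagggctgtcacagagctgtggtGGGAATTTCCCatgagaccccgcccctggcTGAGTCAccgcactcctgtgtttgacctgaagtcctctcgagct
BIRC3 promoter, chr11:102317234-102317483, plus strand: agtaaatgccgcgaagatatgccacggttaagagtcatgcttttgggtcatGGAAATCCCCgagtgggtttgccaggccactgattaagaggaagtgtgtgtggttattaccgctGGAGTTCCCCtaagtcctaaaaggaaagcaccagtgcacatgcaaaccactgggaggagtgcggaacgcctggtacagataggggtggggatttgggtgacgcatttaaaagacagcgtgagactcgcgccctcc

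In TNFRSF9 the capitals nearest the start are an AP-1 site whose first base lies 44 bases before the start. The other capitals in TNFRSF9 are 2 overlapping matches of the NF-kB consensus, which begin 74 and 73 bases before the start. This RefSeq start lies inside the longer gene span of the siRNA table. In BIRC3 the matches of the NF-kB consensus begin 199 and 135 bases before the start. The NF-kB consensus occurred in 5.21% of 35116 RefSeq promoters of the same length, the AP-1 site in 6.57% and the cAMP element in 1.65%. A match describes the letters in the window and shows no binding.

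The genes lie on several chromosomes of hg38, the build of the siRNA table. BIRC3 (ENSG00000023445, chr11:102317484-102339403) and BIRC2 (ENSG00000110330, chr11:102347211-102378670) are neighbours on the plus strand, with 7807 bases between them. TNFRSF10D (ENSG00000173530, chr8:23135588-23164027) and TNFRSF10A (ENSG00000104689, chr8:23190452-23225102) are both on the minus strand, 26424 bases apart. On other chromosomes, TNFRSF1A (ENSG00000067182) lies at chr12:6328757-6342114 and TNFRSF9 (ENSG00000049249) at chr1:7915871-7943165. TNFRSF11B (ENSG00000164761) lies at chr8:118923557-118951885, TNFRSF21 (ENSG00000146072) at chr6:47231532-47309905, TNFRSF12A (ENSG00000006327) at chr16:3018445-3022383 and XIAP (ENSG00000101966) at chrX:123859712-123913972. TNFRSF12A, BIRC2, BIRC3 and XIAP are on the plus strand and the other genes on the minus strand.

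The libraries were checked before the genes were compared. SNRPA1 itself had 21.4, 21.0 and 23.7 counts per 1000000 (CPM) in SNRPA1 siRNA libraries, against 67.6, 58.9 and 60.2 CPM in control siRNA libraries (log2 fold change -1.50 ± 0.10 SE, edgeR quasi-likelihood adjusted p = 0.00495). Without any 1 SNRPA1 siRNA library its edgeR adjusted p was 0.0501 to 0.0558, with about the same change. The siRNA libraries held 55003534 to 65385258 counted reads, and the kava table gives transcripts per 1000000 (TPM), which hide the depth. Control siRNA replicate 1 stood apart, with a median absolute log2 difference of 0.29 from its group, against 0.07 to 0.20 for the other siRNA libraries. Of 10 epithelial markers, 4 reached 1 TPM in kava cells and 5 in vehicle cells, with summed levels of 1280 to 1339 TPM in kava cells and 1198 to 1244 TPM in vehicle cells. The sums hid opposite changes of single keratins. KRT7 averaged 406 ± 19.0 TPM in kava cells and 192 ± 2.85 TPM in vehicle cells (1.08, limma adjusted p = 7.16e-06), and KRT19 averaged 0.705 ± 0.0309 TPM in kava cells and 23.5 ± 1.19 TPM in vehicle cells (-3.85, limma adjusted p = 6.83e-07). KRT8 and KRT18 were called lower, by smaller amounts (-0.21 and -0.11), while CDH1, KRT5, KRT14, TP63 and CLDN4 were under 1 TPM in both groups. Summed fibroblast markers were 502 to 529 TPM in kava cells and 479 to 513 TPM in vehicle cells, with THY1 as the main one. Within that list COL1A2 averaged 8.54 ± 0.378 TPM in kava cells and 0.101 ± 0.0554 TPM in vehicle cells (3.12, limma adjusted p = 2.73e-06), and COL1A1 was called lower (-0.14). Endothelial markers summed to 0.399 to 0.479 TPM in kava cells and 1.39 to 1.59 TPM in vehicle cells, most of it CDH5. Blood markers summed to 6.98 to 8.92 TPM in kava cells and 6.68 to 8.44 TPM in vehicle cells, all but a trace from CD14, with HBB, MS4A1 and FCGR3A at 0. In FPKM, epithelial markers summed to 419 to 447 in SNRPA1 siRNA cells and 367 to 464 in control siRNA cells, with no marker called. Fibroblast markers summed to 110 to 126 FPKM in SNRPA1 siRNA cells and 94.1 to 113 FPKM in control siRNA cells, and COL1A1 was called higher (0.38, edgeR adjusted p = 0.0463), a call that ended without any 1 SNRPA1 siRNA library. Blood markers summed to 7.74 to 9.71 FPKM in SNRPA1 siRNA cells and 7.45 to 10.5 FPKM in control siRNA cells, and endothelial markers to 0.310 to 0.551 FPKM in SNRPA1 siRNA cells and 0.498 to 0.661 FPKM in control siRNA cells. In bulk RNA, fewer cells of a type and less RNA per cell cannot be told apart. The part of these marker levels in the results was not tested.

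Length-normalised levels placed TNFRSF12A first and TNFRSF11B last among the 10 genes in both kava and vehicle cells. TNFRSF12A, also called Fn14, binds the cytokine TWEAK and has no death domain. It averaged 434.0 ± 7.02 TPM in kava cells and 301 ± 8.39 TPM in vehicle cells (SD, n = 3 each, as for all means here). TNFRSF1A averaged 101 ± 1.97 TPM in kava cells and 87.3 ± 1.87 TPM in vehicle cells, and BIRC2 averaged 59.6 ± 1.58 TPM in kava cells and 63.6 ± 0.903 TPM in vehicle cells. The other genes lay between 3.94 and 23.2 TPM in kava cells and between 2.20 and 26.6 TPM in vehicle cells. Some neighbours in this order had overlapping libraries. In kava cells these were TNFRSF21 with BIRC3 and TNFRSF10A with XIAP, and in vehicle cells TNFRSF21 with XIAP.

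Kava against vehicle was tested with limma on log2(TPM + 1), and calls were made at an adjusted p under 0.05 among the 13866 genes averaging 1 TPM or more. All 10 genes passed this filter, and 7 were called, against a background of 31.9% of all tested genes. At an unadjusted p under 0.05, 8 of the 10 passed, against 42.8%. The 5 higher genes compare with 16.3% of tested genes called higher, and the 2 lower genes with 15.6% called lower. The median log2 fold change was 0.15 over the 10 genes and -0.01 over all tested genes, and the median absolute change was 0.48 against 0.15. In 8 of the 10 genes the kava and vehicle libraries did not overlap, against 47.2% of tested genes. Given how the genes were chosen, these shares describe the 10 genes only.

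Among the receptors with a death domain, TNFRSF10A (TRAIL receptor 1, also DR4) had 13.8, 14.7 and 14.6 TPM in kava libraries, against 9.48, 8.81 and 9.94 TPM in vehicle libraries. Every kava library was above every vehicle library, and the log2 fold change was 0.56 ± 0.06 (SE; limma adjusted p = 0.000579). TNFRSF21 (DR6), a death receptor best known from neurons and lymphocytes, had 21.7, 20.6 and 20.5 TPM with kava, against 13.3, 12.7 and 12.9 TPM with vehicle. Its change was 0.65 ± 0.05 (limma adjusted p = 0.000109), with a gap between the groups far wider than the range within either. TNFRSF1A, the main receptor for TNF itself, had 103, 101 and 98.8 TPM with kava, against 86.7, 89.4 and 85.8 TPM with vehicle. This was a small difference between tight groups, at a log2 fold change of 0.21 ± 0.04 (limma adjusted p = 0.00458).

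The decoys for the ligand TRAIL differed from one another. TNFRSF11B, or osteoprotegerin, is a secreted receptor that binds RANKL and TRAIL. It had 3.74, 4.25 and 3.85 TPM in kava libraries, against 2.69, 1.92 and 1.99 TPM in vehicle libraries, a change of 0.64 ± 0.11 (limma adjusted p = 0.0052). The groups did not overlap, although this was the lowest of the 10 genes and vehicle replicate 1 lay above its group. TNFRSF10D (DcR2) carries a truncated death domain and sits beside TNFRSF10A in the genome. It had 24.1, 23.6 and 21.9 TPM with kava, against 24.7, 24.4 and 23.9 TPM with vehicle, with overlapping groups. Its log2 fold change was -0.07, with a 95% confidence interval from -0.19 to 0.05 (limma adjusted p = 0.346). The level of TNFRSF10D over that of TNFRSF10A was therefore 1.74, 1.61 and 1.50 in kava libraries, against 2.61, 2.76 and 2.41 in vehicle libraries. With 3 libraries against 3, the smallest 2-sided exact permutation p such a ratio can reach is 0.1, and no p is given for it.

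TNFRSF12A had the smallest adjusted p of the 10 genes. Its levels were 442, 430.5 and 429 TPM in kava libraries, against 292, 304 and 308 TPM in vehicle libraries. The groups were separated by over 100 TPM, and the log2 fold change was 0.52 ± 0.03 (limma adjusted p = 5.70e-05). TNFRSF9 (4-1BB or CD137), a costimulatory receptor of activated lymphocytes that recruits TRAF1 and TRAF2, went the other way. It had 7.79, 9.05 and 11.2 TPM with kava, against 16.2, 15.4 and 14.8 TPM with vehicle. All kava libraries were below all vehicle libraries, with a wide spread among the kava libraries, and the change was -0.68 ± 0.12 (limma adjusted p = 0.004).

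Of the IAP genes, BIRC3 was lower with kava, and the other members of the trio were not called. BIRC3, itself a target of NF-kB, had 17.9, 18.7 and 21.9 TPM in kava libraries, against 27.4, 26.1 and 26.1 TPM in vehicle libraries. The groups did not overlap, and the log2 fold change was -0.43 ± 0.08 (limma adjusted p = 0.00453). Its neighbour BIRC2 had 60.6, 60.4 and 57.8 TPM with kava, against 64.5, 63.6 and 62.7 TPM with vehicle. These groups did not overlap either, but the change of -0.09 ± 0.04 was not called (limma adjusted p = 0.105). XIAP had 11.7, 12.0 and 14.9 TPM with kava, against 11.9, 10.8 and 13.6 TPM with vehicle, with mixed libraries and a change of 0.09 ± 0.11 (limma adjusted p = 0.601; 95% confidence interval -0.17 to 0.35). The level of BIRC3 over that of BIRC2 was 0.295, 0.310 and 0.378 in kava libraries and 0.425, 0.410 and 0.417 in vehicle libraries. Kava replicate 3 lay nearest to vehicle for both TNFRSF9 and BIRC3, and without it their changes were -0.81 and -0.51.

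**Figure D1:**
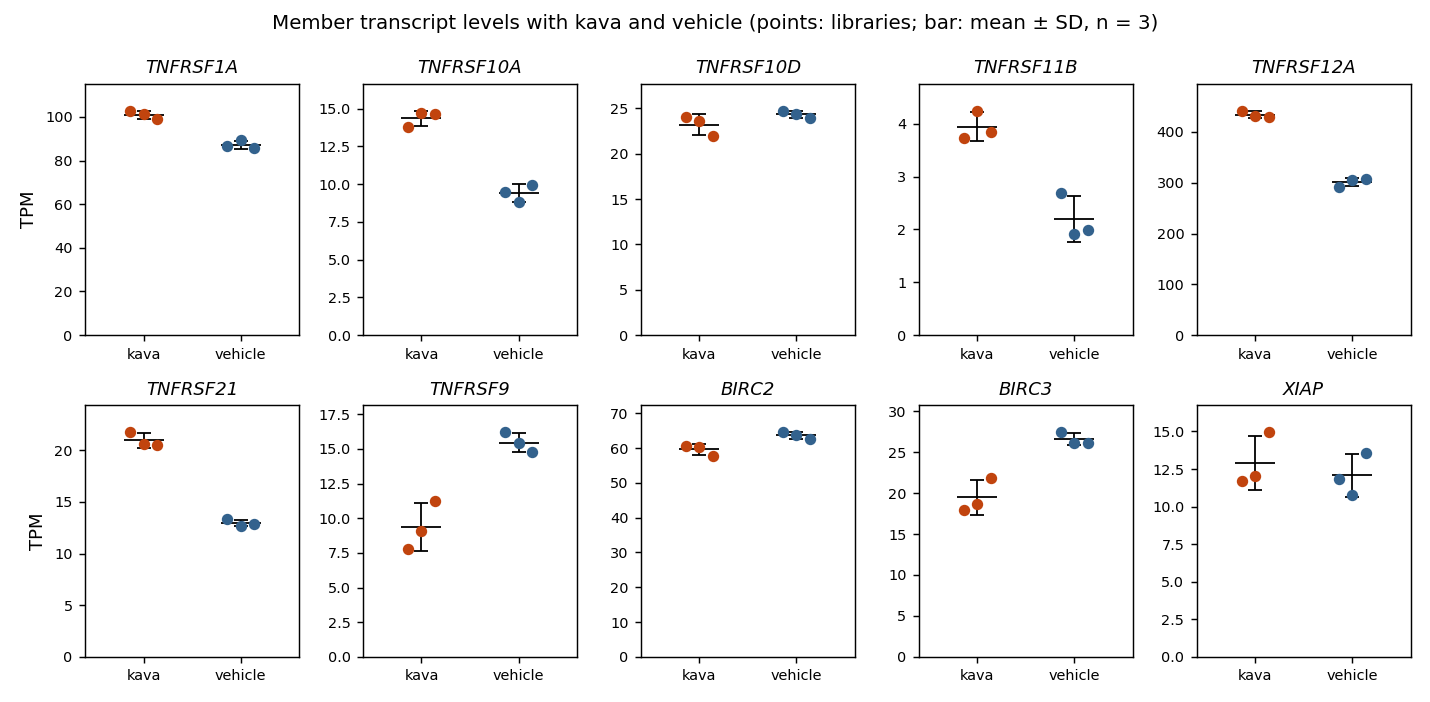
Each panel plots 1 gene, with TPM on the vertical axis from 0 and kava left of vehicle; points are libraries and bars are the mean ± SD of 3. TNFRSF12A, TNFRSF21, TNFRSF10A, TNFRSF11B and TNFRSF1A lie higher in all kava libraries, TNFRSF9 and BIRC3 lie lower in all of them, and TNFRSF10D and XIAP overlap.

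Each of the 7 kava calls held in all 10 alternative settings, including those with any 1 library left out, with limma adjusted p of at most 0.0259. Fold changes on the log2(TPM + 1) scale understate the change of low genes, which among the 10 means TNFRSF11B most of all. Low partner genes below are also understated, EDA2R and TNFSF10 among them, with mean TPM in kava cells 0.174 and 5.68 times that in vehicle cells. The same ratio was 2.57 for TNFRSF1B, 2.52 for TNFSF9, 2.19 for XAF1, 1.92 for CD40 and 0.593 for TRAF1.

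The partners of these receptors and inhibitors were read from lists chosen with earlier results of these data known. Among 22 other TNF receptor genes, 11 were tested, of which 6 were higher, 1 was lower and 4 were not called, with a median log2 fold change of 0.28. Over all tested genes 16.3% were called higher and 15.6% lower, with a median of -0.01. The largest rise was that of TNFRSF6B (DcR3), a secreted decoy for FASLG and related ligands. It averaged 92.4 ± 15.1 TPM in kava cells and 21.7 ± 1.09 TPM in vehicle cells (2.03, limma adjusted p = 2.32e-05). TNFRSF6B shares exons with the readthrough transcript RTEL1-TNFRSF6B, so its reads may be divided between them. That readthrough gene had 8.54 to 9.21 TPM in kava libraries and 8.39 to 8.60 TPM in vehicle libraries. The second TRAIL death receptor, TNFRSF10B, averaged 87.2 ± 1.87 TPM with kava and 71.7 ± 3.06 TPM with vehicle (0.28, limma adjusted p = 0.00269), and the lymphotoxin receptor LTBR rose by 0.40. TNFRSF1B, the second TNF receptor, rose by 0.96, the RANK gene TNFRSF11A by 0.69 and CD40 by 0.75. The ectodysplasin receptor EDA2R averaged 0.481 ± 0.0427 TPM with kava and 2.77 ± 0.146 TPM with vehicle (-1.35, limma adjusted p = 9.32e-05). FAS was not called, at 5.15 ± 0.805 TPM with kava and 4.70 ± 0.395 TPM with vehicle (0.10, limma adjusted p = 0.522). TNFRSF25 was not called either, at 6.22 ± 0.129 TPM with kava and 6.23 ± 0.541 TPM with vehicle (limma adjusted p = 0.999). The other uncalled receptors were TNFRSF14 (0.04) and RELT (0.02).

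Of 18 TNF family ligands, 13 were under the filter and 5 were tested. With kava 4 of these 5 were higher, where 16.3% of all tested genes were called higher. TNFSF10, which encodes TRAIL, the ligand of TNFRSF10A, TNFRSF10D and TNFRSF11B, averaged 4.32 ± 0.404 TPM in kava cells and 0.760 ± 0.0787 TPM in vehicle cells (1.59, limma adjusted p = 4.38e-05). TNFSF9, the ligand of TNFRSF9, averaged 7.20 ± 0.605 TPM with kava and 2.86 ± 0.384 TPM with vehicle (1.09, limma adjusted p = 0.000253). The ligand was thus higher where its receptor was lower. CD70 rose by 0.73. TNFSF13 (APRIL) rose by 0.33 (limma adjusted p = 0.0206), a call that ended without kava replicate 1 or 3 or any 1 vehicle library, at adjusted p from 0.0541 to 0.0671. TNFSF12, which encodes TWEAK, the ligand of TNFRSF12A, had 4.70 ± 0.144 TPM with kava and 5.63 ± 0.777 TPM with vehicle and was not called (limma adjusted p = 0.136). TNF itself was at most 0.181 TPM in any of the 6 libraries, and FASLG was listed at 0.

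Of 27 tested adaptors and kinases close to the receptors, 4 were higher and 6 lower, or 37.0% called, near the 31.9% of all tested genes. TRAF1, an adaptor of TNFRSF9 and BIRC3 complexes, averaged 2.16 ± 0.232 TPM with kava and 3.65 ± 0.267 TPM with vehicle (-0.56, limma adjusted p = 0.00413). TRAF3, which joins BIRC2 and BIRC3 in restraining noncanonical NF-kB, fell by 0.51 and TRAF5 by 0.37, while MLKL, the effector of necroptosis, rose by 0.39. The number of called adaptors moved between 7 and 10 over the alternative settings. Among 6 tested relatives and antagonists of the IAP genes, BIRC5 (survivin, which acts mainly in mitosis) rose by 0.36 to 163 ± 5.01 TPM, against 127 ± 3.72 TPM in vehicle cells. XAF1, an antagonist of XIAP, rose by 0.70, and SEPTIN4, whose ARTS isoform also binds XIAP, changed by -0.39.

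Among 13 NF-kB subunits and inhibitors, 4 were lower, 1 was higher and 8 were not called, so that 38.5% were called, near the 31.9% of all tested genes. The lower genes included the feedback inhibitors TNFAIP3, at 16.0 ± 0.331 TPM with kava and 22.6 ± 0.0783 TPM with vehicle (-0.48), and NFKBIA (-0.38), beside the subunit NFKB1 (-0.28). TNIP1, which binds TNFAIP3, was higher, at 218 ± 4.75 TPM with kava and 148 ± 4.18 TPM with vehicle (0.55, limma adjusted p = 5.72e-05).

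The knockdown was tested against control siRNA on the deposited counts with edgeR's quasi-likelihood method. In this experiment 1 of the 10 genes was higher, 1 was lower and 8 were not called, against a background of 12.2% of 13772 tested genes (4.89% higher and 7.29% lower). That background was 0 to 33.1% with 1 library left out, highest without control siRNA replicate 1. The median log2 fold change of the 10 genes was 0.07, beside -0.0032 for all tested genes. In 4 of the 10 genes the groups did not overlap, against 38.7% of tested genes. At an unadjusted p under 0.05, 3 of the 10 genes passed, against 30.8% of tested genes.

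TNFRSF1A had 249.8, 273 and 271 CPM in SNRPA1 siRNA libraries, against 221, 199 and 202 CPM in control siRNA libraries. All knockdown libraries lay above all control libraries, with a log2 fold change of 0.35 ± 0.08 (edgeR adjusted p = 0.0322). TNFRSF9 had 6.05, 4.22 and 3.49 CPM with SNRPA1 siRNA, against 8.30, 9.70 and 8.69 CPM with control siRNA, from 186 to 657 reads per library. It was lower in each knockdown library, at -0.95 ± 0.22 (edgeR adjusted p = 0.0356). Both calls ended without any 1 SNRPA1 siRNA library or without control siRNA replicate 2 or 3. The edgeR adjusted p then lay between 0.0748 and 0.151 for TNFRSF1A and between 0.0692 and 0.149 for TNFRSF9. Without control siRNA replicate 1 both remained called (edgeR adjusted p = 0.00241 and 0.0136).

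BIRC3 had 4.70, 3.72 and 3.94 CPM in SNRPA1 siRNA libraries, against 5.53, 7.74 and 6.67 CPM in control siRNA libraries. The groups did not overlap, but the change of -0.69 ± 0.19 missed the threshold (edgeR adjusted p = 0.0537; 95% confidence interval -1.12 to -0.25). Without control siRNA replicate 1 its change was -0.81 (edgeR adjusted p = 0.0104). BIRC3 over BIRC2, as length- and depth-scaled FPKM, was 0.0611, 0.0509 and 0.0628 with SNRPA1 siRNA and 0.0980, 0.0972 and 0.0885 with control siRNA. BIRC2 had 46.2, 44.0 and 37.8 CPM with SNRPA1 siRNA, against 34.0, 47.9 and 45.4 CPM with control siRNA, a change of 0.01 with a 95% confidence interval from -0.34 to 0.36 (edgeR adjusted p = 0.98).

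XIAP had the widest spread within a group of any of the 10 genes. It had 30.6, 25.4 and 20.8 CPM in SNRPA1 siRNA libraries, against 16.8, 5.08 and 24.95 CPM in control siRNA libraries. The low control library rested on 344 reads, where the other control libraries had 1058 and 1683, and the highest control value was 4.91 times the lowest. Only 0.879% of tested genes had a wider ratio in the control siRNA group, in which the median was 1.32. The log2 fold change of 0.72 ± 0.49 was not called (edgeR adjusted p = 0.369; 95% confidence interval -0.44 to 1.87). Without control siRNA replicate 2 the change was 0.30 and without replicate 3 it was 1.23, neither of them called. XIAP shares 11.1% of its 31-base sequences with other genes, the largest share of the 10 genes, so part of its reads could be placed elsewhere. The pseudogene XIAPP1, which is among those genes, had 0, 0 and 0.109 FPKM in SNRPA1 siRNA libraries and 0 in every control siRNA library. The source of the XIAP spread was not tested.

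TNFRSF10A, TNFRSF10D, TNFRSF11B, TNFRSF12A and TNFRSF21 were not called after SNRPA1 knockdown. TNFRSF10A had 14.9, 12.8 and 12.5 CPM with SNRPA1 siRNA, against 11.8, 12.4 and 11.5 CPM with control siRNA, without overlap (0.17, edgeR adjusted p = 0.348). TNFRSF12A, the receptor with the clearest change under kava, had 277, 309 and 287 CPM with SNRPA1 siRNA, against 356, 291 and 300 CPM with control siRNA (edgeR adjusted p = 0.446). Its log2 fold change was -0.12, with a 95% confidence interval from -0.35 to 0.11. TNFRSF21 had 24.2, 25.9 and 22.5 CPM with SNRPA1 siRNA, against 22.1, 30.6 and 27.8 CPM with control siRNA (-0.15, edgeR adjusted p = 0.518). Control siRNA replicate 1 was the highest control library for TNFRSF12A and the lowest for TNFRSF21. TNFRSF10D changed by 0.13, with groups that overlapped (edgeR adjusted p = 0.429). TNFRSF11B rested on 103 to 214 reads per library, and its change of 0.47 was not called (edgeR adjusted p = 0.244). The ratio of TNFRSF10D to TNFRSF10A, in FPKM, was 2.87, 3.03 and 3.18 with SNRPA1 siRNA and 2.83, 3.24 and 3.29 with control siRNA.

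**Figure D2:**
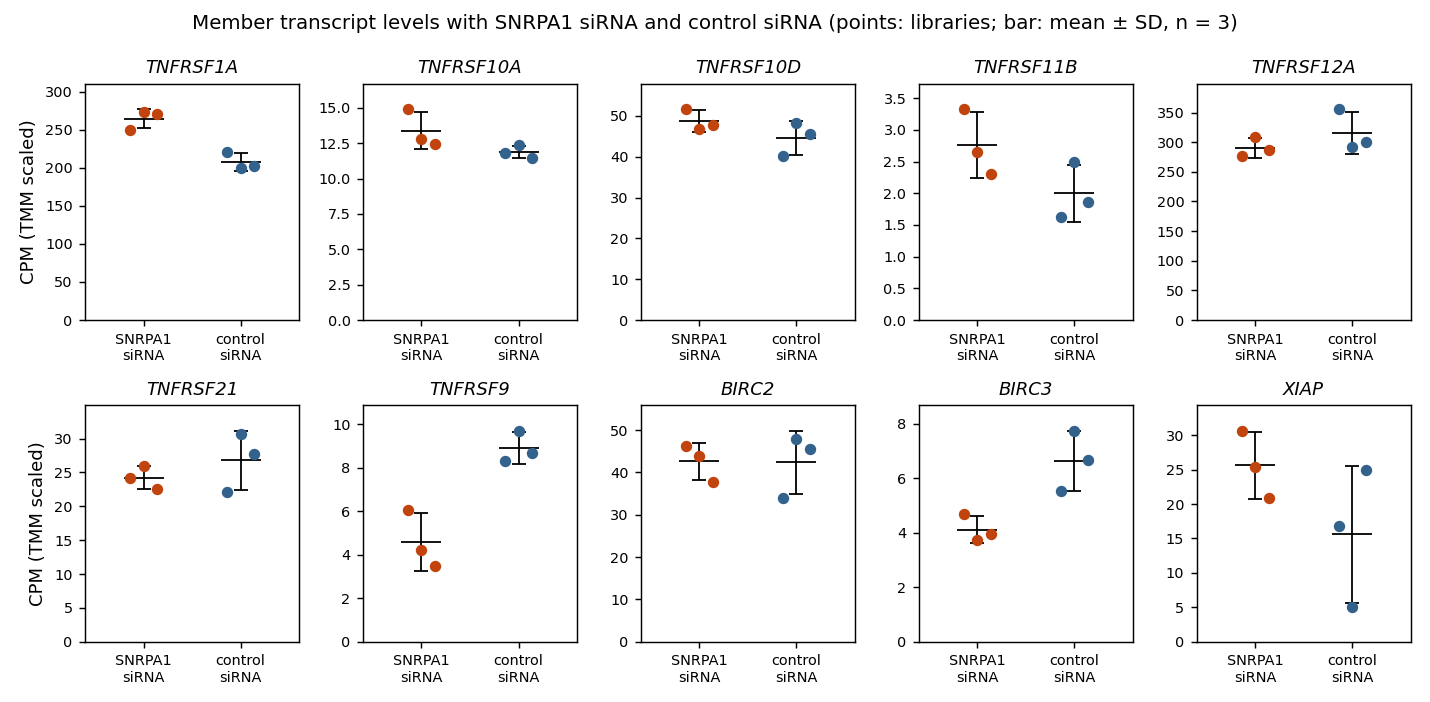
Each panel plots 1 gene, with CPM on the vertical axis from 0 and SNRPA1 siRNA left of control siRNA; points are libraries and bars are the mean ± SD of 3. TNFRSF1A lies higher and TNFRSF9 and BIRC3 lie lower in all SNRPA1 siRNA libraries, and XIAP in control siRNA cells spans 5.08 to 24.95 CPM.

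The experiments share no library, and their tables were normalised apart, so fold changes are set side by side without a test of their difference. TNFRSF1A changed by 0.21 with kava and by 0.35 with SNRPA1 siRNA, and TNFRSF9 by -0.68 and -0.95. BIRC3 stood at -0.43 with kava, which was called, and at -0.69 with SNRPA1 siRNA, which was not. TNFRSF12A and TNFRSF21 stood at 0.52 and 0.65 with kava, and their intervals with SNRPA1 siRNA ended at 0.11 and 0.18. SNRPA1 itself was lower with kava, at 127 ± 2.99 TPM, against 150.5 ± 3.17 TPM with vehicle (-0.24, limma adjusted p = 0.00227).

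**Figure D3:**
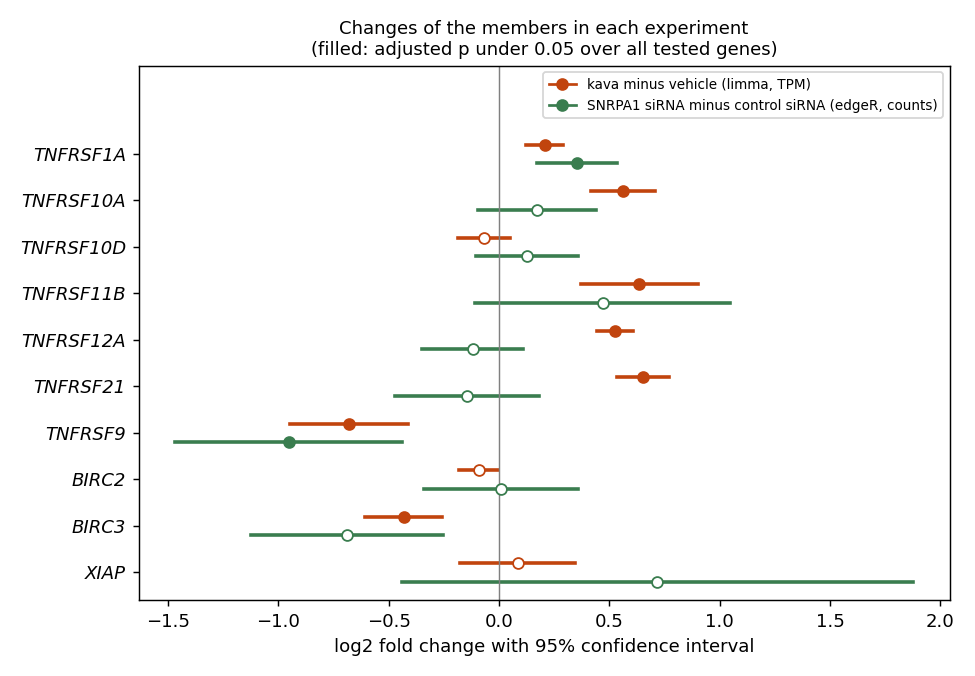
Log2 fold changes of the 10 genes run along the horizontal axis with 95% confidence intervals, kava minus vehicle above SNRPA1 siRNA minus control siRNA in each row, and filled points are called. TNFRSF1A and TNFRSF9 have filled points in both experiments, whereas TNFRSF10A, TNFRSF11B, TNFRSF12A, TNFRSF21 and BIRC3 are filled for kava alone.

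After SNRPA1 knockdown the partner lists held 8 calls by edgeR, which called 12.2% of all tested genes. In the receptor list 1 of 14 tested genes was called, TNFRSF1B, at 2.95 ± 0.0468 CPM with SNRPA1 siRNA and 4.92 ± 0.925 CPM with control siRNA (-0.74, edgeR adjusted p = 0.0477). TNFRSF6B had 8.90, 2.04 and 49.5 CPM with SNRPA1 siRNA, against 21.7, 30.3 and 13.8 CPM with control siRNA, a scatter far wider than any difference between the groups. The readthrough gene RTEL1-TNFRSF6B had 7.52, 8.54 and 1.91 FPKM in the same SNRPA1 siRNA libraries, against 15.6, 9.44 and 13.3 FPKM in control siRNA libraries. None of 5 tested ligands was called by edgeR (0 at an unadjusted p under 0.05) or by DESeq2. Among them CD70 had 13.2 ± 1.94 CPM with SNRPA1 siRNA and 15.3 ± 2.26 CPM with control siRNA, and TNFSF12 had 10.3 ± 1.36 CPM with SNRPA1 siRNA and 12.7 ± 1.64 CPM with control siRNA.

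Among 27 tested adaptors and kinases 4 were lower. The largest fall was that of TRAF1, with 1.22 ± 0.201 CPM in SNRPA1 siRNA cells and 3.32 ± 0.636 CPM in control siRNA cells (-1.45, edgeR adjusted p = 0.0165). MLKL changed by -0.62, TAB1 by -0.44 and the kinase IKBKB by -0.33. By edgeR the NF-kB subunit RELB was the only called gene of its 13, at 22.4 ± 0.570 CPM with SNRPA1 siRNA and 34.9 ± 6.27 CPM with control siRNA (-0.64, edgeR adjusted p = 0.0305). CASP2, an initiator caspase, rose to 82.7 ± 3.70 CPM, against 51.0 ± 3.41 CPM in control siRNA cells (0.70, edgeR adjusted p = 0.00976), and CASP6 changed by -0.41. Of 7 tested IAP relatives and antagonists edgeR and DESeq2 called none, and 1 of them, DIABLO, had an unadjusted edgeR p under 0.05 (0.28, adjusted p = 0.146). BIRC5 had 253 ± 9.20 CPM with SNRPA1 siRNA and 226 ± 22.5 CPM with control siRNA. Without control siRNA replicate 1, edgeR called 2 of these 7 higher, BIRC5 (0.25, adjusted p = 0.0111) and DIABLO (0.40, adjusted p = 0.00616), and 1 lower. All 8 calls in the partner lists, TNFRSF1B included, ended without any 1 SNRPA1 siRNA library or without control siRNA replicate 3, at edgeR adjusted p from 0.0545 to 0.164. TNFRSF1B, IKBKB and CASP6 also lost theirs without control siRNA replicate 2 (0.0629 to 0.0855). Without control siRNA replicate 1, 10 adaptors and kinases (4 higher and 6 lower), 7 NF-kB genes (1 higher and 6 lower), 2 receptors (lower), 3 caspases (2 higher and 1 lower) and no ligand were called, against 33.1% of all tested genes. DESeq2 called 23.2% of all tested genes. In the lists it called 5 NF-kB genes lower and 0 higher, and 4 adaptors and kinases higher and 5 lower. It also called 1 receptor higher and 3 lower, and 2 caspases higher and 1 lower. Limma on log2(FPKM + 1), with 14.5% of all tested genes called, called 4 of 12 NF-kB genes lower. It also called 4 of 25 adaptors and kinases lower, and 1 caspase higher and 1 lower.

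**Figure D4:**
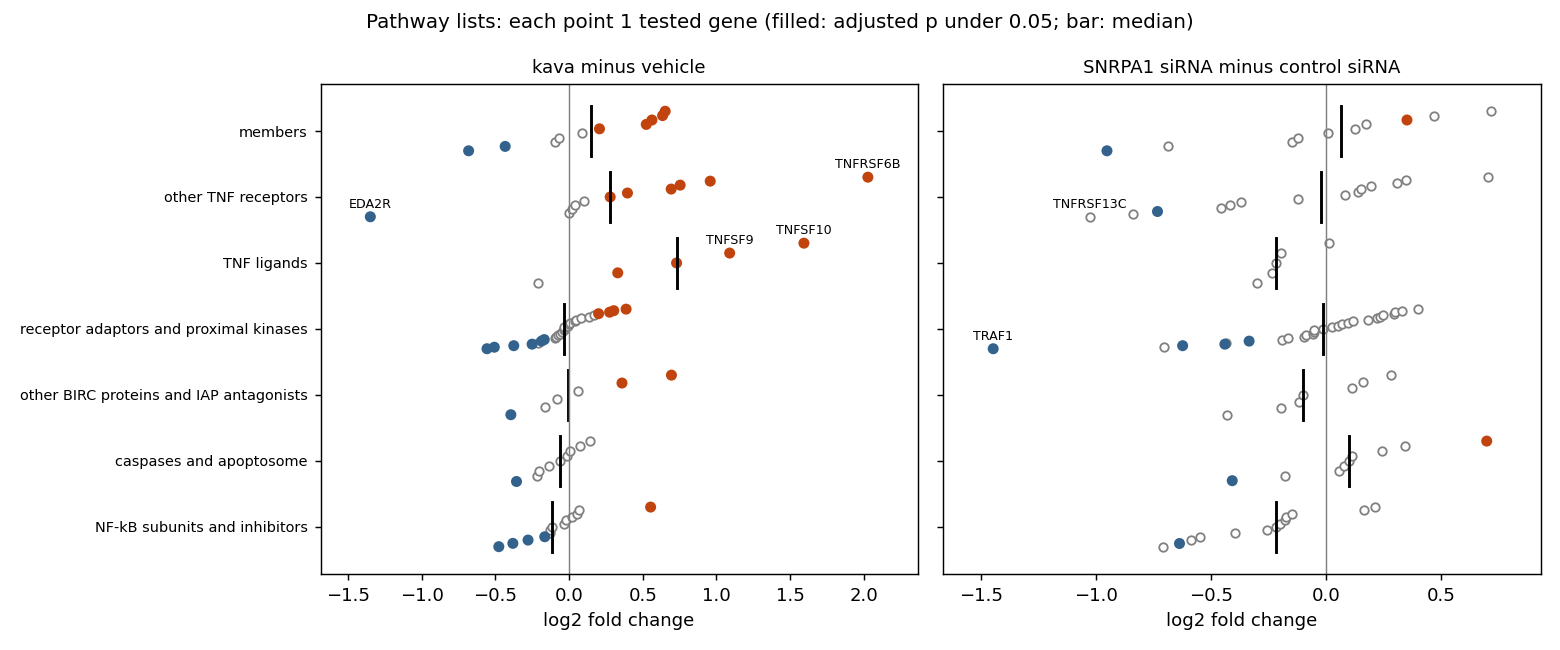
Each point is the log2 fold change of 1 tested gene of a list, kava minus vehicle on the left and SNRPA1 siRNA minus control siRNA on the right; filled points are called, red higher and blue lower, and bars are list medians. With kava the ligand and receptor lists have medians of 0.73 and 0.28, with TNFRSF6B at 2.03 the highest point and EDA2R at -1.35 the lowest.

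Some neighbours overlap these genes. TNFRSF10A shares 7.59% of its exonic bases with the antisense gene TNFRSF10A-AS1 and 9.01% with TNFRSF10A-DT on the opposite strand. The sources used here do not say whether counting used the strand, so reads there cannot be told apart. TNFRSF10A-AS1 was listed at 0 in all 6 libraries of the kava table, and TNFRSF10A-DT had 2.42, 3.89 and 3.57 TPM in kava libraries, against 3.34, 3.14 and 3.12 TPM in vehicle libraries. TNFRSF12A shares 40 exonic bases with CLDN6, which was at most 0.253 TPM. BIRC2 shares 37 of its 31-base sequences with other genes, or 0.778%, and BIRC3 0.909%.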

How the data were processed

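RNA libraries were made from Trizol-extracted RNA with oligo(dT) beads, per the labels' protocols. Per the submitters' processing notes, build hg38 was used with HISAT2 2.0.4, StringTie 1.3.4d, cutadapt 1.9 and DESeq2, and no step is tied to a table. The authors deposited TPM values for the kava and vehicle libraries, in a table whose name mentions another quantifier (salmon), and the steps behind it were not resolved. For the siRNA libraries the authors deposited raw read counts and FPKM, per the file headers. One FPKM column lacks its prefix and was assigned because it is proportional to that library's counts.

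TPM were tested with limma 3.58.1 (R 4.3.3; eBayes with trend) on log2(TPM + 1), and counts with edgeR 4.0.16 (TMM, quasi-likelihood), each over genes averaging at least 1 TPM or 1 CPM. CPM are counts over the TMM-scaled library sizes of the tested genes. Tests were 2-sided, with Benjamini-Hochberg adjustment over all tested genes. The edgeR SE is the size of the change over the square root of F. Both fits were tested on simulated data. The simulated counts had the same dispersion for every gene and no outlying library such as control siRNA replicate 1. That test therefore does not cover calls that depend on single libraries.

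The 10 genes and all lists were chosen with earlier results of these data known. Text names all 10 genes, SNRPA1, and up to 4 called genes per list with the largest absolute change, or the 2 highest genes where none was called. LTBR, TNFRSF10B, TNFRSF11A, FAS, TNFRSF14, TNFRSF25, RELT, TNF, FASLG, TNFSF12 with kava, TNFRSF6B with siRNA and the marker genes fall outside that rule. They were picked with their values known. Alternatives were DESeq2 1.42.0, RLE scaling, no filter on low values, a pseudocount of 0.1, quantile normalization, limma on FPKM, a replicate block and leaving out each library. Gene overlaps and shared 31-base sequences come from GENCODE 29. Some results of the lists are not reported here.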

Additional observations from a re-analysis of the deposited data

How the results depend on the processing

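With kava, 7 of the 10 genes were called in each of 10 alternatives, and all 7 calls kept their direction, while all genes called ranged from 3155 to 4447, against 4429 as reported. The uncalled XIAP turned to -0.018 without kava replicate 3 and ranged up to 0.17 with other libraries left out. Of 30 called genes in the partner lists, 25 kept their call throughout. Leaving out vehicle replicate 1 lowered the genes called lower to 1400, against 2168.

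With SNRPA1 siRNA, the 2 calls and 1677 genes depended on single libraries. With 1 library left out, edgeR called 0 to 3 of the 10 genes and 0 to 4546 genes in all, and SNRPA1 itself lay between -1.56 and -1.44. Leaving out any 1 SNRPA1 siRNA library gave 0 genes (2889 to 3267 at an unadjusted p under 0.05, and 3 of the 10), with SNRPA1 at an edgeR adjusted p of 0.0501 to 0.0558. Without control siRNA replicate 1, 2 or 3, edgeR called 4546, 1060 and 15 genes, and 3, 0 and 0 of the 10 genes, with 4 of the 10 at an unadjusted p under 0.05 each time. DESeq2 called 3195 genes and 3 of the 10, adding BIRC3 (adjusted p = 0.00464). Without the filter 669 genes and 0 of the 10 were called (3 unadjusted, by edgeR). Limma on log2(FPKM + 1) tested only 7 of the 10 and called 1, since TNFRSF9, TNFRSF11B and BIRC3 fell under its filter of 1 FPKM. It called 1639 genes in all, with 394 higher and 1245 lower, against 673 higher and 1004 lower by edgeR. The split without control siRNA replicate 1 was 2222 higher and 2324 lower. Uncalled BIRC2 turned to -0.039 on FPKM and ranged from -0.13 to 0.10 with 1 library left out, below 0 without SNRPA1 siRNA replicate 1 or 2 or control siRNA replicate 1. The cause was not tested.

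Replicate numbers are shared between groups, and whether same-numbered libraries were handled together is not known. Same-numbered deviations from group means correlated at -0.02, -0.11 and 0.09 with kava and at -0.38, 0.0015 and -0.19 with siRNA. These values cannot settle pairing, since the deviations of the 3 libraries of a group sum to 0. With a replicate block, 3954 genes and 7 of the 10 were called with kava. With siRNA the block gave 0 genes and 0 of the 10 by edgeR (2919 and 3 at an unadjusted p under 0.05), with SNRPA1 at -1.50 (edgeR adjusted p = 0.118).

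Depth limits TNFRSF11B, TNFRSF9 and BIRC3 in the siRNA table, where single libraries rest on 103 to 657 reads. No counting error can be given for TPM.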

Other observations

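Several family members lay under the filter of 1 TPM and were not tested, and those given here were picked with their values known. The ligand TNFSF14 (LIGHT) had 1.31, 1.41 and 1.45 TPM in kava libraries, against 0.337, 0.280 and 0.317 TPM in vehicle libraries. TNFRSF8 (CD30) had 0.660, 0.745 and 0.680 TPM with kava, against 0.168, 0.309 and 0.174 TPM with vehicle. Both had all kava libraries above all vehicle libraries. NAIP, another gene of the BIRC family, had 0.468, 0.459 and 0.473 TPM with kava, against 0.256, 0.224 and 0.201 TPM with vehicle. The remaining TRAIL decoy, TNFRSF10C, was at most 0.170 TPM in either group.

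The place of BIRC3 among the 10 genes differed between the tables. It had rank 6 of 10 in kava cells (19.5 ± 2.10 TPM) and rank 4 in vehicle cells (26.6 ± 0.746 TPM), but last in SNRPA1 siRNA cells (0.486 ± 0.0679 FPKM) and next to last in control siRNA cells (0.821 ± 0.163 FPKM). BIRC2 had rank 3 in both TPM groups and rank 4 in both FPKM groups, at 8.37 ± 0.975 FPKM with SNRPA1 siRNA and 8.71 ± 1.82 FPKM with control siRNA. The tables differ in quantification, transfection and scaling, and which of these moves the order of the genes cannot be told apart.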
